A study of Drosophila melanogaster with 24 samples.

Results

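The peaks of the X chromosome were examined in 14 peak lists from chromatin immunoprecipitation followed by sequencing (ChIP-seq) of Drosophila melanogaster embryos. Every peak listed on X was kept, which gave 13425 of the 83085 peaks of the 14 lists (16.2%), between 193 and 2067 per library. X was compared with the chromosome arms 2L, 3L and 3R, pooled unless an arm is named, and the other chromosomes of the lists were not used here. The embryos were 1 to 3 h old, and the labels name no allele, treatment or sex, so the X dose of the chromatin is not known. Rabbit antibodies were used to precipitate 4 subunits of the coactivator complex SAGA, namely Ada2b in 4 libraries, Spt3 and Sgf11 in 3 each and Non-stop in 2. RNA polymerase II (Pol II) was precipitated with the mouse antibody 4H8, which binds the repeated tail of its largest subunit, in 2 libraries. The antibodies to Spt3 and Sgf11 were raised against the full-length proteins, and those to Ada2b and Non-stop against a part of the protein. The 10 total chromatin libraries of the series, listed with the ChIP libraries of the same number, were not analysed on their own.

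SAGA is built from modules that act on chromatin and on the transcription machinery. Ada2b belongs to the histone acetyltransferase module and is also part of the smaller ADA complex, Spt3 belongs to the SPT module, which contacts the TATA-binding protein, and Sgf11 and Non-stop belong to the deubiquitinase module, in which Non-stop is the enzyme that removes ubiquitin from histones and Sgf11 is needed for its activity. Drosophila males carry a single X and females a pair, and in males the MSL complex raises transcription of the X by acetylating histone H4. The embryos studied here were at the age at which zygotic transcription begins.

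A library is named by its number, such as 1530_1, whose first part is a library set. Sets 1530 and 1760 held Ada2b and Spt3, set 1924 held Sgf11 and Non-stop, set 1377 held Sgf11, and sets 1188 and 1632 held Pol II. The factor and the set therefore cannot be told apart where Sgf11 or Non-stop is set against Ada2b or Spt3, or Pol II against the SAGA subunits. No label says that libraries came from separate collections of embryos, so the p-values measure the spread between these libraries. The lists hold no read counts and their depth is unknown, and they ranged from 1563 to 12073 peaks. Arm lengths were taken as the highest peak end in any list, 22.4 Mb for X, 23.0 Mb for 2L, 24.5 Mb for 3L and 27.9 Mb for 3R, so that X made up 22.9% of the 4 arms. All coordinates are 1-based in dm3.

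Ada2b peaks were less dense on X than on the autosome arms in every library. X carried 453 Ada2b peaks in library 1530_1, 239 in 1530_2, 193 in 1530_3 and 790 in 1760_2, which is 20.2, 10.7, 8.61 and 35.2 per Mb. On 2L, 3L and 3R together the same libraries had 26.1, 15.2, 12.2 and 44.0 peaks per Mb. In each of the 4 libraries X was also below 2L, 3L and 3R taken singly. The ratio of X to the arms averaged -0.43 ± 0.10 on the log2 scale (SD, n = 4), with an exact sign-flip permutation p of 0.13, the smallest that 4 libraries allow. Ada2b was sparsest relative to 3R, where the mean log2 ratio was -0.60, and nearest to 3L, where it was -0.29.

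Spt3 peaks were also less dense on X in every library, but to a degree that differed between library sets. X carried 238 Spt3 peaks in library 1530_1 and 271 in 1530_2, which is 10.6 and 12.1 per Mb, against 15.7 and 19.0 per Mb on the arms. In library 1760_2, which had 1032 X peaks, the density was 46.0 per Mb on X and 49.7 per Mb on the arms. The log2 ratios were -0.57, -0.65 and -0.11, a mean of -0.44 ± 0.29 (SD, n = 3), with an exact permutation p of 0.25, the smallest possible for 3 libraries. Without 1760_2 the mean was -0.61. X lay below each of the 3 arms in all 3 Spt3 libraries.

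Sgf11 peaks were as dense on X as on the autosome arms. Sgf11 gave 856 X peaks in library 1377_1, 1158 in 1377_2 and 1074 in 1924_2, which is 38.2, 51.7 and 47.9 per Mb, against 38.1, 51.5 and 45.8 per Mb on the arms. The mean log2 ratio was 0.02 ± 0.04 (SD, n = 3, exact permutation p = 0.25), and it was -0.03 against 3R alone. In no Sgf11 library did X lie below or above all 3 arms.

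Non-stop, the enzyme of the same module, had slightly fewer peaks per Mb on X. Its libraries 1924_1 and 1924_2 had 1360 and 1973 X peaks, or 60.7 and 88.0 per Mb, against 66.6 and 94.0 per Mb on the arms. The log2 ratios were -0.14 and -0.09, and X was below each arm in both libraries, where the exact permutation p of 0.5 is the only value that 2 libraries of 1 direction can give. The 2 Pol II libraries went in opposite directions. Library 1188_2 had 92.2 peaks per Mb on X and 88.4 on the arms, and library 1632_1 had 76.8 on X and 85.6 on the arms, from 2067 and 1721 X peaks.

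**Figure D1:**
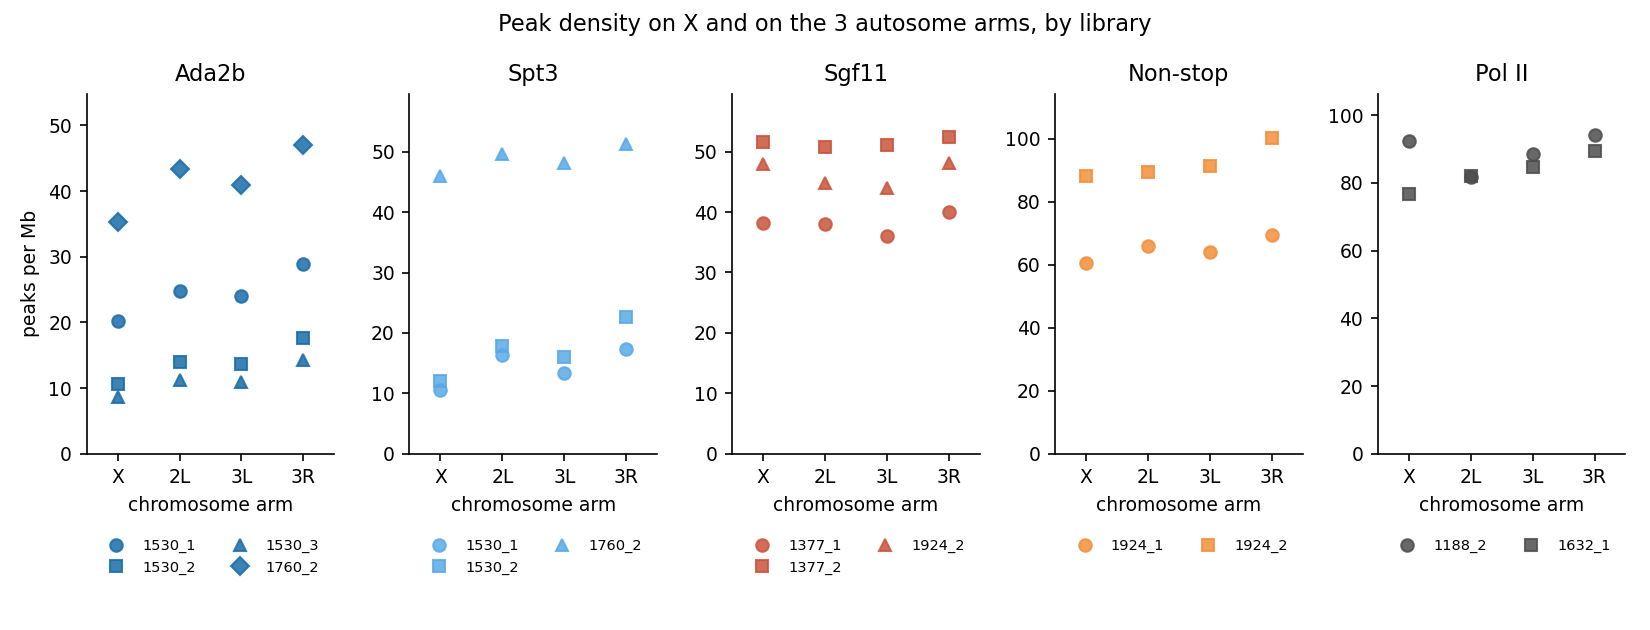
Peaks per Mb (vertical axes, from 0, a scale of its own for each factor) on X, 2L, 3L and 3R (horizontal axes) in each library, 1 symbol per library. X is the lowest arm in all 4 Ada2b, all 3 Spt3 and both Non-stop libraries and in 1 of the 2 Pol II libraries, and in no Sgf11 library.

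Over the 14 libraries the mean log2 ratio of X to the arms was -0.24 ± 0.25 (SD, n = 14), lower on X in 10 of 14 libraries (exact permutation p = 0.00293, adjusted over 26 tests 0.0109). This mean depends on how libraries, peaks and length are counted. With 1 value for each of the 6 library sets it was -0.15 (exact permutation p = 0.188), and with the upper 50% of each list by fold enrichment it was -0.02 (exact permutation p = 0.705). X has fewer annotated genes for its length, 2705 against 11216 on the arms in the Release 6 annotation, and per annotated gene the mean log2 ratio was 0.07 (exact permutation p = 0.325). Per gene, Sgf11 averaged 0.33 and Pol II 0.25, while Ada2b averaged -0.12 and Spt3 -0.14.

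Ada2b and Spt3 lay further below the arms on X than Sgf11 and Non-stop did. Sgf11 and Non-stop had a mean log2 ratio of -0.03 over 5 libraries, and Ada2b and Spt3 had -0.43 over 7. The difference of 0.40 exceeded the spread between libraries (exact permutation p = 0.00505, adjusted 0.0164). The log2 ratios of the Sgf11 and Non-stop libraries lay between -0.14 and 0.07 and those of Ada2b and Spt3 between -0.65 and -0.11, so that 1 library, Spt3 1760_2, reached into the range of the other group. Under 25 alternatives the difference stayed between 0.30 and 0.53, with exact permutation p-values from 0.00126 to 0.00909, although 2 of them, annotated genes in place of Mb and another arm length, shift every library alike and could not change it. It was not tested with 1 value per library set, since the factors come from 2 sets on each side and such a test could not pass 0.05. It was 0.42 when each list was reduced to as many top peaks as the smallest list holds (exact permutation p = 0.00379). Between Ada2b and Spt3 the difference was 0.02 (exact permutation p = 0.971), and between Pol II and the 12 SAGA libraries it was 0.22 (exact permutation p = 0.308), both within the spread of the libraries.

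**Figure D2:**
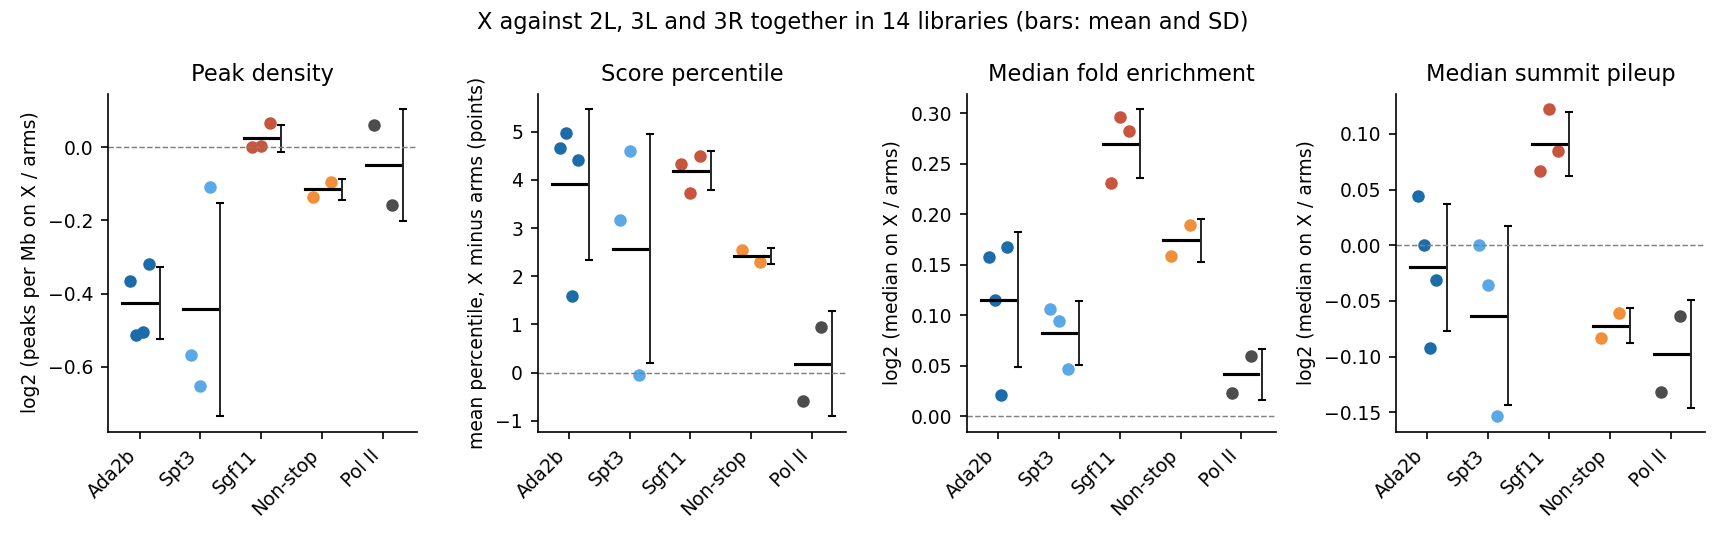
X against 2L, 3L and 3R together: the log2 ratio of peak density, the difference in mean score percentile, and the log2 ratios of median fold enrichment and of median summit pileup (vertical axes) for the 5 factors (horizontal axes). Each point is 1 library, horizontal bars are means and error bars SDs. Density is below 0 for Ada2b and Spt3, while fold enrichment is above 0 in all 14 libraries and pileup is above 0 in all 3 libraries for Sgf11 alone.

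The deposited values also allowed the background of each peak to be compared between X and the arms. MACS2, the peak caller used, takes the higher of a local and a genome-wide estimate of the background at each peak. The number of reads at the summit (the pileup) and this background were solved from the fold enrichment and the p-value of each peak, and whole-number pileups matched all but 1 peak. Each library had a lowest background value that no peak fell below and that many peaks shared. Of the X peaks, between 44.9% and 96.0% stood at this value, against 7.15% to 16.4% of the peaks of 2L, 3L and 3R. In the Ada2b libraries the share was 75.3% to 95.4% on X and 7.85% to 14.6% on the arms. In Non-stop it was 44.9% and 46.6% on X, against 16.4% and 13.0% on the arms. The median background was lower on X in 14 of 14 libraries, by between -0.12 and -0.30 on the log2 scale. In every library but the 2 of Non-stop, most X peaks stood at the lowest value. The X median was then that value, and a lower local estimate could not show. Its part in the density and score results was not tested. With only the upper 50% of each list by pileup, the density ratio averaged -0.49 for Ada2b and -0.67 for Spt3. It was 0.10 for Sgf11, -0.25 for Non-stop and -0.16 for Pol II, so that all factors but Sgf11 were further below 0 than with all peaks. This ranking does not use the background, but the ranked peaks had been called against it, so the subset cannot show the part of the background.

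X peaks ranked higher within their lists than peaks of the arms. The score of a peak was turned into a percentile among the X, 2L, 3L and 3R peaks of its library, from 0 for the lowest to 100 for the highest. The mean percentile on X exceeded that on the arms in every Ada2b library, by 4.67 points in 1530_1, 4.97 in 1530_2, 1.59 in 1530_3 and 4.42 in 1760_2. It did so by 4.34, 3.74 and 4.50 points in the Sgf11 libraries, and by 2.54 and 2.30 points in Non-stop. Spt3 gave 3.17, 4.61 and -0.05 points and Pol II -0.59 and 0.95 points. Over all libraries the difference was 2.94 ± 1.86 points (SD, n = 14), higher on X in 12 of 14 (exact permutation p = 0.000488, adjusted 0.00635). With 1 value for each of the 6 library sets it was 2.25 points and no longer passed 0.05 (exact permutation p = 0.0625). Pol II averaged 0.18 points and the 12 SAGA libraries 3.40 points, a difference of -3.22 that did not pass 0.05 after adjustment (exact permutation p = 0.022, adjusted 0.0571).

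X was under-represented in the weak part of the lists of the SAGA subunits. In the lowest 10% by score X held 10.1% to 15.1% of the Ada2b peaks and 13.98% to 18.0% of the Sgf11 peaks. It held 13.7% to 17.4% of those of Spt3 and 18.5% and 21.5% of those of Non-stop. All of these lay below the 22.9% that its length gives, whereas Pol II had 23.7% and 20.7%. From the lowest to the highest 10% the share of X increased by 10.7 to 11.9 points in the Sgf11 libraries and by 3.46 to 8.82 points in the Ada2b libraries. The highest 10% of the Sgf11 lists held 25.2%, 27.7% and 29.9% X peaks, that of Ada2b 16.1% to 20.5%, and that of Spt3 11.97%, 15.2% and 21.4%. When only the upper 50% of each list by score was used, the mean percentile difference was -0.34 points (exact permutation p = 0.582), while Sgf11 kept 1.73 points and Non-stop 0.15 points. X was not found to hold a larger share of the highest 10% than of the whole lists (mean difference 0.91 points, exact permutation p = 0.252, higher in 9 of 14 libraries). It did so in all 3 Sgf11 and both Non-stop libraries, by 2.26 to 6.13 points, and in none of the 3 Spt3 libraries.

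**Figure D3:**
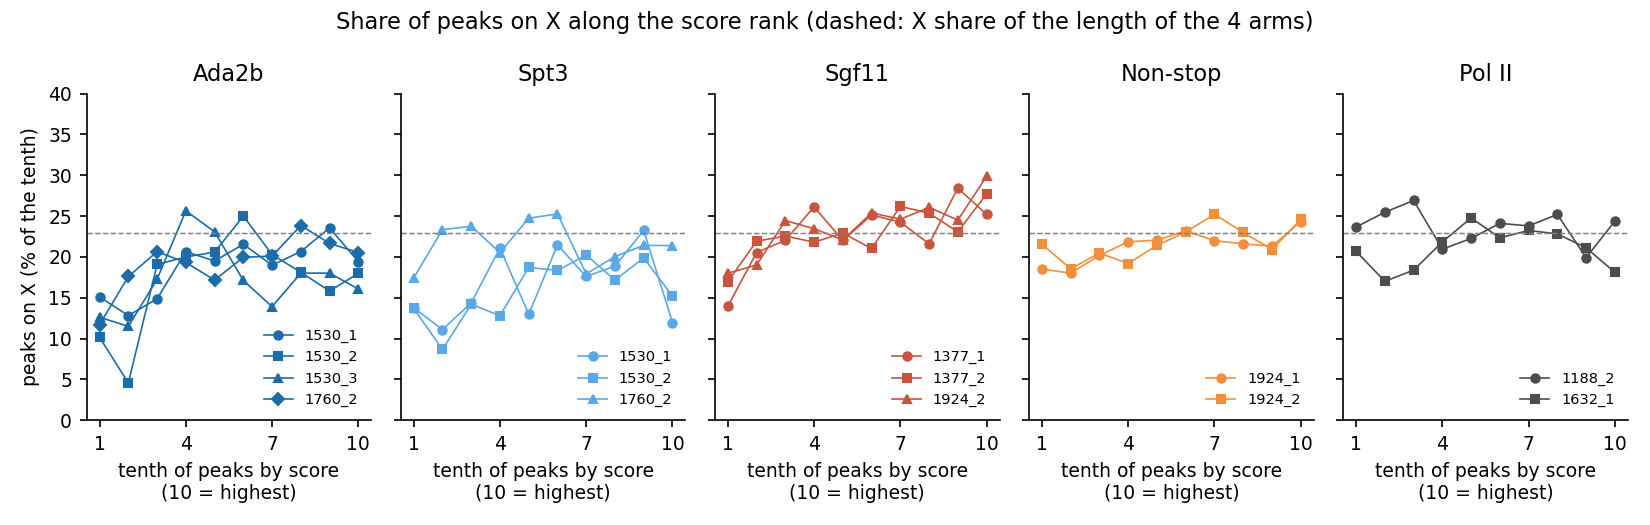
Percent of peaks on X (vertical axis) in 10 equal groups of the peaks of X, 2L, 3L and 3R ordered by score (horizontal axis, 10 the highest), 1 line per library, with the 22.9% of arm length that X makes up as a dashed line. The share is lowest at the weak end in the Ada2b and Sgf11 libraries and ends at 25.2% to 29.9% in the 3 Sgf11 libraries.

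Fold enrichment, the ratio of ChIP to background at the summit, was higher on X for every factor. Its median was 4.99, 5.96 and 6.24 on X against 4.25, 4.85 and 5.13 on the arms in the Sgf11 libraries 1377_1, 1377_2 and 1924_2. In Non-stop the medians were 3.38 and 3.51 on X, against 3.03 and 3.08 on the arms. Ada2b medians were 2.91 to 3.06 on X and 2.73 to 2.86 on the arms. The log2 ratio averaged 0.14 ± 0.09 (SD, n = 14), higher on X in 14 of 14 libraries (exact permutation p = 0.000122, the smallest possible, adjusted 0.00317). The lower background on X goes into this ratio. The pileup alone was higher on X in 4 libraries, equal in 2 and lower in 8. All 3 Sgf11 libraries were among the 4, with medians of 111, 110.5 and 88.0 reads on X against 106, 101.5 and 83.0 on the arms.

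The share of the top Pol II peaks that lay on X depended on the measure used to rank them. Of the 100 peaks of library 1188_2 with the highest fold enrichment among the 4 arms, 81 lay on X, against 20 of 100 in library 1632_1. By pileup the same counts were 2 and 4 of 100. No pileup of any library exceeded 400 reads, a value that 5 libraries reached, and in 1188_2 81 X peaks and 394 arm peaks stood within 10 reads of this limit. At an equal pileup, the fold enrichment is higher where the background is lower. In 1188_2, 85.9% of the X peaks stood at the lowest background, against 9.70% of the arm peaks. In 1632_1, with 20 of its top 100 by fold enrichment on X, these shares were 96.0% and 8.51%. The part of the background in these counts was not tested. Among the SAGA subunits, X held 37, 50 and 45 of the top 100 by fold enrichment in the Sgf11 libraries and 37 and 44 in Non-stop, and by pileup 23, 26 and 30 in Sgf11 and 29 and 21 in Non-stop. By fold enrichment it held 18 to 28 in Ada2b and 10 to 23 in Spt3.

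X peaks were slightly narrower. The log2 ratio of median widths averaged -0.05 ± 0.05 (SD, n = 14), and X peaks were narrower in 12 of 14 libraries (exact permutation p = 0.00122, adjusted 0.00635). The medians differed most in Spt3, with 294, 314 and 365 bp on X against 310.5, 348 and 393 bp on the arms. Sgf11 medians were 474, 507 and 337 bp on X, against 474, 510 and 331 bp on the arms. Wide Pol II peaks were also less common on X: peaks over 2 kb made up 17.1% and 7.79% of the X peaks in 1188_2 and 1632_1, against 20.4% and 12.2% of the arm peaks. Peaks covered a smaller part of X than of the arms in 13 of 14 libraries, the exception being Sgf11 1924_2, with 1.82% of X and 1.72% of the arms.

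Combinations of factors on X were measured as the percent of peaks of each library that overlapped, by 1 bp or more, a reproducible peak of another factor. Reproducible peaks were those found in 3 or more Ada2b libraries, or in 2 or more libraries of another factor. Reproducible regions on X numbered 228 for Ada2b, 290 for Spt3, 977 for Sgf11, 1149 for Non-stop and 957 for Pol II. Their densities on X were 10.2, 12.9, 43.6, 51.3 and 42.7 per Mb, against 13.4, 19.4, 42.2, 54.9 and 46.2 per Mb on the arms. Overlap with a factor moves with the density of that factor on X, so it is not independent of the densities given for the same lists. All libraries were set against the same reproducible regions of a factor, so the p-values for overlap leave out the spread between the libraries of that factor.

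Peaks on X overlapped Spt3 less often than peaks of the arms in 11 of 11 libraries. In the Sgf11 libraries 1377_1, 1377_2 and 1924_2, 28.7%, 24.3% and 25.2% of X peaks overlapped Spt3, against 42.9%, 35.6% and 40.2% of arm peaks. In Non-stop the shares were 21.5% and 15.0% on X, against 29.7% and 21.7% on the arms. The mean difference was -7.79 ± 4.34 points (SD, n = 11, exact permutation p = 0.000977, the smallest possible, adjusted 0.00635). Without Spt3 1760_2 it was -4.29 points (exact permutation p = 0.00293), and with an Spt3 peak of any library as the partner it was -1.26 points (exact permutation p = 0.384).

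Overlap with Sgf11 was higher on X in 10 of 11 libraries. Sgf11 was at 94.0% of the X peaks of Ada2b 1530_1, 86.2% of those of 1530_2, 85.0% of those of 1530_3 and 85.4% of those of 1760_2, against 88.3%, 79.0%, 82.9% and 78.9% of the arm peaks. Spt3 1530_1 was the exception, with 88.2% on X and 89.97% on the arms. The mean difference was 3.98 ± 2.64 points (SD, n = 11, exact permutation p = 0.00293, adjusted 0.0109). It rose to 8.39 points when each list was reduced to as many top peaks as the smallest list holds (exact permutation p = 0.000977).

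Overlap with Pol II was lower on X in 11 of 12 libraries of SAGA subunits. It was 68.0%, 62.8% and 65.9% of X peaks in the Sgf11 libraries against 72.0%, 68.8% and 71.8% of arm peaks, and 70.6%, 80.1% and 69.3% in the Spt3 libraries against 78.1%, 87.1% and 75.1%. The mean difference was -5.08 ± 2.21 points (SD, n = 12, exact permutation p = 0.000977, adjusted 0.00635). It was lost when every peak was reduced to 200 bp at its summit, at 0.37 points (exact permutation p = 0.547), when a Pol II peak of either library counted, at -0.33 points (exact permutation p = 0.665), and when Pol II 1632_1 was left out, at -0.73 points (exact permutation p = 0.268). For overlap with Non-stop the difference was within the spread of the libraries (-0.06 ± 1.75 points, SD, n = 12, exact permutation p = 0.917). Overlap with Ada2b was lower on X in 8 of 10 libraries, by -3.11 ± 3.19 points (SD, n = 10, exact permutation p = 0.0176), which did not pass 0.05 after adjustment (0.0508).

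**Figure D4:**
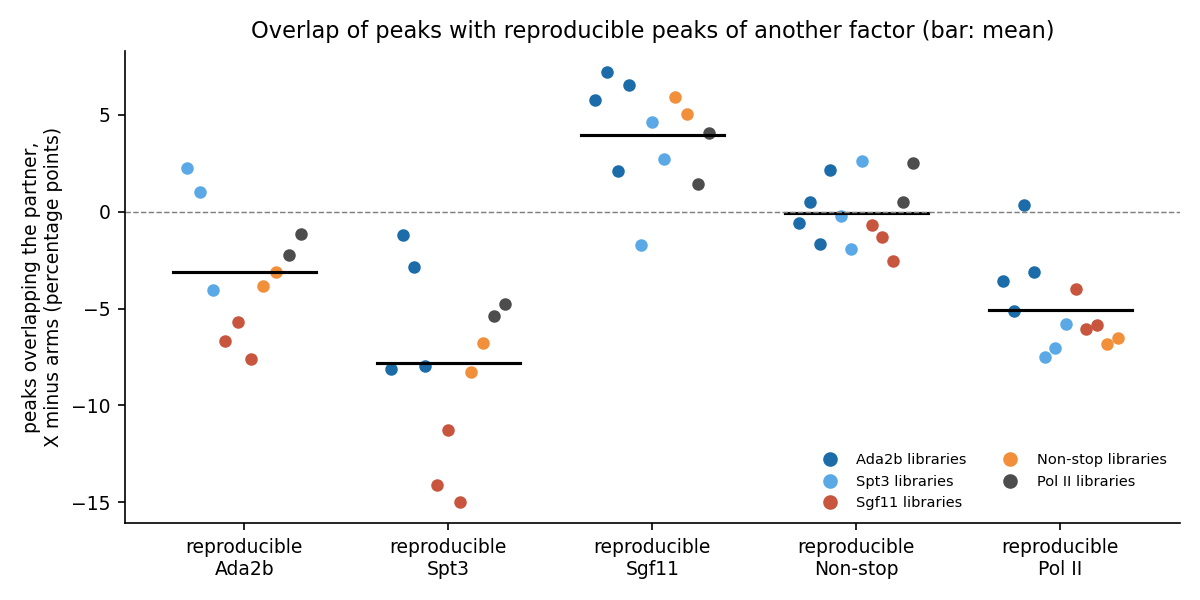
Percent of X peaks minus percent of 2L, 3L and 3R peaks that overlap a reproducible peak of the partner on the horizontal axis (vertical axis, percentage points). Each point is a library of another factor, coloured by that factor, and bars are means. All 11 points for Spt3 lie below 0, and 10 of 11 for Sgf11 lie above 0.

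Reference sites were made by joining overlapping reproducible peaks of Ada2b, Spt3 and Sgf11, and were classed by which of these factors had a reproducible peak there. X held 1013 sites and 2L, 3L and 3R held 3421. Sites with Sgf11 alone made up 650 of the X sites, or 64.2% (95% Wilson interval 61.2% to 67.1%), against 1705 or 49.8% on the arms and 53.1% over the 4 arms together. The difference was 14.3 points (95% Newcombe interval 10.9 to 17.7). These intervals cover counting error only. Sgf11-only sites numbered 29.0 per Mb on X, above the 22.1, 23.2 and 22.5 per Mb of 2L, 3L and 3R, and were the class with the highest density on X relative to the arms.

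Sites with all 3 factors, called canonical here, were less common on X. There were 140 canonical sites on X, 13.8% of its sites, against 656 or 19.2% on the arms and 18.0% over the 4 arms, a difference of -5.36 points (95% interval -7.76 to -2.75). Their density was 6.25 per Mb on X, against 8.01, 7.34 and 10.5 per Mb on 2L, 3L and 3R. Sites with Spt3 and Sgf11 were also less common on X, with 115 or 11.4% on X, against 572 or 16.7% on the arms and 15.5% over the 4 arms (-5.37 points, 95% interval -7.59 to -2.94). Sites with Ada2b and Sgf11 took similar shares, with 67 or 6.61% on X and 215 or 6.28% on the arms, 6.36% over the 4 arms (0.33 points, 95% interval -1.29 to 2.19).

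Sites without Sgf11 were rare on X. Spt3-only sites numbered 28 or 2.76% on X, against 178 or 5.20% on the arms and 4.65% over the 4 arms, and their difference of -2.44 points had a 95% interval of -3.60 to -1.05. Ada2b-only sites numbered 9 or 0.89% on X, against 70 or 2.05% on the arms and 1.78% over the 4 arms (-1.16 points, 95% interval -1.83 to -0.26). Sites with Ada2b and Spt3 but no Sgf11 numbered 4 or 0.39% on X, against 25 or 0.73% on the arms and 0.654% over the 4 arms, where the interval of the difference included 0. When a peak in 2 libraries sufficed for each factor, canonical sites differed by -8.70 points and Sgf11-only sites by 13.9 points.

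**Figure D5:**
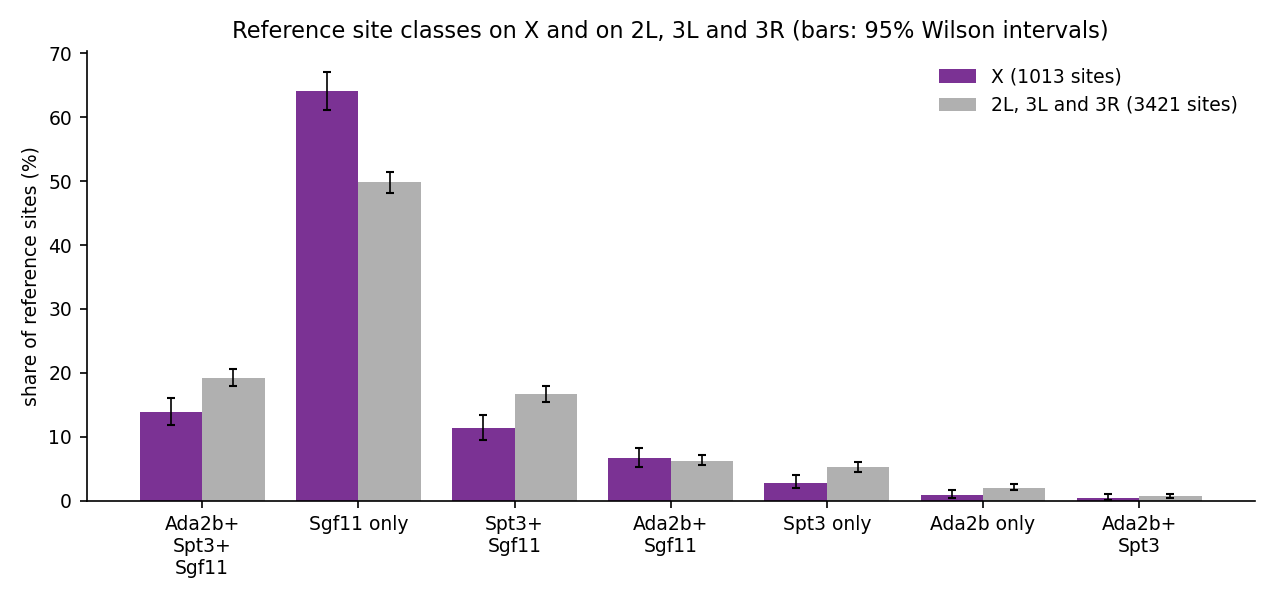
Share of reference sites in each class (vertical axis, percent, from 0) for X, left bar, and for 2L, 3L and 3R, right bar, with 95% Wilson intervals. Sgf11-only sites make up 64.2% of the X sites and 49.8% of the arm sites, and the other classes except Ada2b with Sgf11 take a smaller share on X.

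Non-stop was present at 441 of the 650 Sgf11-only sites of X, or 67.8%, against 64.9% on the arms, and the 95% interval of the difference, -1.39 to 7.09 points, included 0. At canonical sites Non-stop was found at 97.1% on X and 99.2% on the arms (95% interval of the difference -6.38 to -0.08 points). Pol II was found at 62.0% of the Sgf11-only sites of X and 65.5% of those of the arms (95% interval of the difference -7.85 to 0.85 points). For canonical sites the shares were 75.0% on X and 79.7% on the arms (95% interval of the difference -13.0 to 2.49 points). At Spt3-only sites Pol II was less frequent on X, at 14 of 28 sites or 50.0%, against 73.0% on the arms, with a 95% interval of the difference of -41.4 to -4.33 points. The Ada2b-only sites of X had Non-stop at 8 of 9 and Pol II at 2 of 9, or 88.9% and 22.2%. Of the 70 Ada2b-only sites of the arms, 92.9% had Non-stop and 34.3% Pol II, and the 95% intervals of both differences included 0.

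Within classes, the median Sgf11 fold enrichment was higher on X than on the arms. The median Sgf11 pileup was also higher on X, except at sites of Spt3 with Sgf11 in 1377_2. At sites of Ada2b with Sgf11 the median Sgf11 fold enrichment was 7.74, 12.2 and 11.4 on X in libraries 1377_1, 1377_2 and 1924_2, against 5.50, 8.36 and 6.46 on the arms. The median pileup at these sites was 170.5, 226 and 160.5 reads on X, against 141.5, 184 and 106.5 reads on the arms. At Sgf11-only sites it was 98, 113 and 86 reads on X, against 89, 102 and 79 on the arms. At sites of Spt3 with Sgf11 it was 129, 148 and 116.5 reads on X, against 122, 153 and 110.5 on the arms, lower on X in 1377_2. At canonical sites the median Sgf11 fold enrichment was 10.5, 16.2 and 16.2 on X and 8.20, 13.0 and 11.6 on the arms. The median Sgf11 pileup there was 241, 305 and 233 reads on X, against 210, 271 and 185 reads on the arms. The other subunits also had a higher median fold enrichment on X at canonical sites. The log2 ratios were 0.07 to 0.24 in Ada2b, 0.09 to 0.24 in Spt3 and 0.18 to 0.24 in Non-stop. In Pol II they were 0.21 and -0.20. The pileup differed less for Ada2b, with log2 ratios of X to the arms from -0.06 to 0.05 in the 4 libraries. For Spt3 it ranged from -0.06 to 0.07 in the 3 libraries, and for Non-stop it was 0.05 in both. Pol II at canonical sites had a lower pileup on X in both libraries, with log2 ratios of -0.07 and -0.27. Sites of 1 library are not replicates, and with 3 Sgf11 libraries no exact test can go below 0.25.

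Along the chromosome, X was divided into 5 equal stretches of 4.48 Mb, counted from its first base. The fifth stretch, nearest the centromere, was the sparsest in 9 of 14 libraries, and the fourth was the densest in 10. In Sgf11 1377_2 the stretches held 53.3, 56.0, 50.2, 58.4 and 40.4 peaks per Mb. In Pol II 1188_2 the third stretch was the densest, with 108.4 peaks per Mb, and the fifth the sparsest, with 70.0. The libraries of set 1530 had no such drop. Ada2b had 19.0, 11.8 and 8.92 peaks per Mb in the fifth stretch against 20.2, 10.7 and 8.61 over all of X, and Spt3 had 11.8 and 11.6 against 10.6 and 12.1, with its sparsest stretch the first.

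Reproducible Ada2b regions were absent from 98 of 224 windows of 100 kb on X (43.8%), against 34.7% of 752 windows on the arms. Spt3 regions were absent from 38.8% of X windows and 26.2% of arm windows, and Sgf11 regions from 12.05% of X windows and 11.97% of arm windows. The window of X with the most Pol II regions, chrX:11400001-11500000, held 21 of them but 5 of Non-stop, 4 of Sgf11, 3 of Ada2b and 1 of Spt3. The window with the most Non-stop regions, chrX:16200001-16300000, held 20 of them with 11 each of Sgf11 and Pol II. The longest stretch of X without a reproducible Sgf11 region was 342.8 kb, at chrX:21502091-21844890, and it lacked Non-stop and Pol II regions over nearly the same bases. On the arms the longest such stretches were longer, 371.9 kb for Sgf11, 364.6 kb for Non-stop and 389.9 kb for Pol II. For Spt3 the longest was 690.2 kb on X and 526.9 kb on the arms. For Ada2b the longest such stretch was 677.9 kb on X and 748.7 kb on the arms. That of X, at chrX:12553664-13231541, begins at the edge of the strongest canonical site of X.

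That site, at chrX:12552502-12553698, had the highest mean score percentile of the 140 canonical sites on X, 99.2, over the 10 libraries of Ada2b, Spt3 and Sgf11. Its Ada2b fold enrichment was 11.97 in 1530_1, 12.4 in 1530_2, 12.9 in 1530_3 and 12.6 in 1760_2, and that of Spt3 was 8.54, 7.26 and 9.80. Sgf11 gave 16.7, 21.4 and 19.8 there and Non-stop 9.08 and 8.75. It also lay within the Pol II region with the highest mean percentile on X, chrX:12550412-12555291, where Pol II reached 12.9 and 9.11. All 14 libraries thus had a peak at this place, and the 4 Ada2b values lay within 1 unit of each other. The site was chosen by its rank in the Ada2b, Spt3 and Sgf11 libraries. Its Ada2b pileups were 390, 336, 337 and 372 reads, where the highest of these lists were 397, 374, 358 and 397. The closeness of the Ada2b values therefore cannot be read as a trait of the site.

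The next canonical sites were chrX:3028366-3029375, chrX:17645452-17646296, chrX:1846799-1847572 and chrX:19759475-19760388, with mean percentiles of 99.2, 97.9, 97.8 and 97.1. Their Ada2b fold enrichment averaged between 10.8 and 12.1 over 4 libraries and their Sgf11 fold enrichment between 18.4 and 21.9 over 3 libraries. Pol II separated them. It averaged 10.8 at the first and 5.99 at the second, had no peak in either library at chrX:1846799-1847572, and reached 5.41 and 1.99 at chrX:19759475-19760388. The site without Pol II still had Non-stop at 13.9 and 12.3.

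The 5 strongest Sgf11-only sites were chrX:11515338-11516337, chrX:16492390-16493637, chrX:14474274-14474926, chrX:12658562-12659573 and chrX:926973-927468. Their Sgf11 fold enrichment averaged between 16.7 and 17.8 over 3 libraries, below the 18.4 to 21.9 of the 5 named canonical sites. In 1377_2 the Sgf11 pileup was 333 to 346 reads at these sites. At the canonical sites it was 384 to 397 reads, near the limit of 400. Non-stop had a peak in both libraries at each Sgf11-only site, averaging between 9.33 and 12.4. None was free of the other subunits. Each had a peak in Spt3 1760_2, with fold enrichment from 3.21 to 4.22, and in Ada2b 1760_2, from 2.93 to 4.14, and the second and the third had one in Ada2b 1530_1. Over all 650 Sgf11-only sites of X, 64.9% had a peak in Spt3 1760_2 and 50.6% in Ada2b 1760_2, against 70.4% and 59.8% of those of the arms. Ada2b 1530_1 had a peak at 20.2% of them on X and 23.6% on the arms. In Spt3 1530_1 and in Ada2b 1530_2 and 1530_3 it was 0 of 650. The class leaves out sites with reproducible Spt3 or Ada2b peaks, so its definition limits all of these shares. The name of the class says that peaks of Ada2b and Spt3 were not reproducible there.

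The 3 Ada2b-only sites of X with the highest Ada2b percentile lay within 103 kb, at chrX:13908702-13909827, chrX:13997022-13997932 and chrX:14011318-14011938. At the first, the Ada2b fold enrichment was 3.06, 4.91, 4.82 and 3.10 in libraries 1530_1, 1530_2, 1530_3 and 1760_2. At the second it was 3.06, 5.35, 4.74 and 2.59, and at the third 2.51, 3.99, 4.01 and 2.29. Libraries 1530_2 and 1530_3 were the higher pair at all 3. No Spt3, Sgf11 or Pol II library had a peak at these sites, while Non-stop had 1 in both libraries at each, with 9.61 and 7.11 at the first, 10.7 and 7.59 at the second and 8.29 and 5.31 at the third. All 4 Ada2b and both Non-stop libraries thus had a peak at each of these sites. The class requires Ada2b in 3 or more libraries and leaves out reproducible Spt3 and Sgf11 peaks. Its definition and the ranking by Ada2b therefore largely set the Ada2b, Spt3 and Sgf11 results here.

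Among the Spt3-only sites of X, chrX:5520161-5520460 had Spt3 in all 3 libraries, at 3.67, 3.64 and 2.91, and no peak of any other factor. The Spt3-only site with the highest percentile, chrX:12646064-12646562, had Spt3 at 3.93 in 1530_1 and 5.93 in 1760_2 but no peak in 1530_2, and chrX:7187488-7188234 likewise lacked 1530_2, with 2.87 and 4.35 in the other libraries. The strongest site of Ada2b with Sgf11, chrX:10726259-10726944, had Ada2b at 7.32, 5.61, 4.93 and 10.1 and Sgf11 at 12.4, 17.5 and 17.6. The next were chrX:2313340-2313996, with Ada2b at 4.05 to 9.23 and no Pol II peak, and chrX:7217584-7218555, with Ada2b at 5.01 to 8.79. Spt3 had a peak at all 3 in library 1760_2 alone, from 3.75 to 4.69, in a class that leaves out reproducible Spt3 peaks.

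The reproducible Non-stop regions of X with the highest percentile were chrX:11588835-11589696, chrX:2164545-2165183 and chrX:18264673-18265826, with Non-stop at 16.7 and 15.7 at the first. All 14 libraries had a peak at each. Sgf11 averaged 21.0, 22.0 and 21.6 at the 3 regions over 3 libraries, with pileups of 364 to 394 reads, near the limit of 400 at which fold enrichment no longer separates sites, whereas Ada2b averaged 7.15, 5.40 and 5.59 over 4 libraries. The second and the third Pol II region, chrX:20565133-20569502 and chrX:2027755-2031217, differed from the first in their SAGA subunits. Pol II reached 12.9 and 8.95 at the second and 12.9 and 9.01 at the third, but the pileups of 1188_2 at the 3 regions were 398, 400 and 399 reads, so that its fold enrichment could not separate them. Sgf11 was between 2.30 and 3.55 at the second and between 2.66 and 4.85 at the third. Ada2b had no peak at the third in libraries 1530_2 and 1530_3.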

How the data were processed

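Peak lists of 14 ChIP libraries, grouped by label, were analysed. The authors aligned reads to dm3 (bowtie) and ran MACS2 with its defaults, per methods stated for Ada2b, Spt3 and Sgf11 and taken to hold for Non-stop and Pol II. Each total chromatin library is listed with the peak list of its number, and the control of the peak calling is not given in the sources used here. CASAVA 1.8.2 is named in the submitters' processing notes, and other versions are not given in the sources used here. Per the deposited lists, the score grows with the −log10 q-value of the peak caller. The authors' fold enrichment divides summit pileup by background, each plus 1, and is a ratio. The deposited −log10 p was used with it to solve for the whole-number pileup and the background within 0.001. Lists hold called peaks only, so weaker binding is absent, and no depth is known.

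Density, percentile, width, fold enrichment and overlap were compared by exact two-sided sign-flip permutation over libraries, and groups of libraries by exact permutation, with Benjamini-Hochberg adjustment over 26 tests. Named sites were the 5 canonical and 5 Sgf11-only X sites, the 3 sites each of Ada2b only, Spt3 only and Ada2b with Sgf11, and the 3 Non-stop and 3 Pol II regions with the highest mean percentile. Members and lists were chosen with earlier results of these data known. No dm3 genome or annotation was used, so start sites, genes and motifs were not analysed here. Code was tested on simulated lists and against bedtools 2.31.1 (Python 3.11.15, NumPy 2.4.6, SciPy 1.17.1, pandas 2.3.3, matplotlib 3.10.9).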

Additional observations from a re-analysis of the deposited data

Results flagged for a closer look

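In all, 4 results met a criterion for a closer look. The difference in X density between Sgf11 and Non-stop and Ada2b and Spt3, 0.40 on the log2 scale, differed between groups by an exact permutation test (p = 0.00505, 5 against 7 libraries). The difference in X score percentile between Pol II and the SAGA subunits was -3.22 points (exact permutation p = 0.022, 2 against 12 libraries, adjusted 0.0571), with 0.18 points in Pol II and 3.40 points in the SAGA subunits. It changed to 4.96 points with as many top peaks as the smallest list holds.

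Among 11 measures of the 4 Ada2b libraries, Dixon's criterion set apart 2 values, where chance sets apart about 1 group in 20. The score percentile difference of Ada2b 1530_3 was 1.59 points, the lowest of the 4, and without this library the Ada2b mean was 4.68 points. The log2 ratio of the median background of X to the arms was -0.22 in Ada2b 1760_2 and -0.12 to -0.13 in the other Ada2b libraries. Spt3 1760_2, which shares its number, had the same value of -0.22.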

How the results depend on the processing

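Of 495 values under alternatives, 422 kept their direction and side of 0.05 or, for shares of sites, their size. The count includes density and score percentile values of each factor taken alone. These have too few libraries to pass 0.05 under any setting, so only their direction could change. Differences in density are log2 ratios and the others are points, and the cause of the changes was not tested. With 1 value per library set (for overlaps chosen after seeing the data), density over all libraries was -0.15, score percentile 2.25 (exact permutation p = 0.0625), Ada2b overlap -2.81, Sgf11 overlap 3.86 and Pol II overlap -5.11 (the fewer values allow no p under 0.0625 and 0.13 for these last overlaps), and Non-stop overlap 0.18. With the upper 50% of each list by score, density over all libraries was -0.13, score percentile -0.34, -0.38 in Ada2b, -2.10 in Spt3 and -1.20 in Pol II, its difference of Pol II from SAGA subunits -1.01, Ada2b overlap -1.24, Non-stop overlap 0.35 and the X share of the highest 10% -0.26. With as many top peaks as the smallest list, density over all libraries was -0.13 and Pol II minus SAGA subunits -0.072. Score percentile was then 2.11, -0.13 in Ada2b and -0.86 in Spt3, with 4.96 for Pol II minus SAGA subunits and 4.42 for Sgf11 and Non-stop minus Ada2b and Spt3 (exact permutation p = 0.00126), and overlaps were -2.60 with Ada2b and 0.27 with Non-stop. Per annotated gene, density was 0.067 over all libraries, 0.19 for Non-stop and 0.25 for Pol II. With peaks within 500 bp joined, density was 0.016 for Pol II and -0.0061 for Ada2b minus Spt3, and Pol II score percentile -0.53. Against 2L alone, Pol II had a density of 0.041 and a score percentile of -1.27. Against 3L alone, Ada2b minus Spt3 density was -0.027. Against 3R alone, density was -0.032 for Sgf11 and -0.010 for Ada2b minus Spt3, and score percentile -1.67 for Pol II minus SAGA subunits, -0.50 for Sgf11 and Non-stop minus Ada2b and Spt3 and -0.53 for Ada2b minus Spt3. Without 1 Mb at the arm ends, Pol II score percentile was -0.29. With a partner peak in any library, overlap was -1.26 with Spt3 and -0.33 with Pol II. With peaks of 200 bp, it was -1.39 with Ada2b, 1.57 with Non-stop (exact permutation p = 0.0298) and 0.37 with Pol II. With a peak in 2 or more libraries of each factor, the share of canonical sites differed by -8.70 points, of Spt3 with Sgf11 by -1.22, of Ada2b only by -3.14 and of Ada2b with Spt3 by -1.12. Of the other alternatives chosen after seeing the data, leaving out set 1760 gave score percentiles of -0.32 for Sgf11 and Non-stop minus Ada2b and Spt3 and -0.15 for Ada2b minus Spt3, and the upper 50% by fold enrichment gave densities of -0.022 over all libraries, 0.10 for Non-stop and 0.022 for Pol II.

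Leaving out 1 library at a time gave ranges of -0.088 to 0.18 for Ada2b minus Spt3 density, -0.16 to 0.060 for Pol II density, -0.59 to 0.95 for Pol II score percentile, -3.99 to -2.45 for its difference from SAGA subunits, -0.42 to 0.44 for that of Sgf11 and Non-stop from Ada2b and Spt3, -0.30 to 0.17 for Non-stop overlap and -5.58 to -0.73 for Pol II overlap, the last without Pol II 1632_1. Ada2b and Spt3 share the numbers 1530_1, 1530_2 and 1760_2. Their deviations at 5890 sites correlated at 0.08, 0.32 and 0.43, so not every number paired the libraries, and these correlations are across sites, which are not replicates. With the replicate block, Ada2b minus Spt3 was 0.04 in density (exact permutation p = 1) and 2.11 points in score percentile (exact permutation p = 0.25, the smallest possible). Within set 1530 these were 0.15 and -0.15. Sets 1760 and 1924 held too few libraries for a test, so only their values are given. In 1760_2 the log2 density ratio was -0.32 in Ada2b and -0.11 in Spt3, the reverse of the order in set 1530. Score percentile differences there were 4.42 points in Ada2b and -0.05 in Spt3. In set 1924 the log2 density ratio was 0.07 in Sgf11, and -0.14 and -0.09 in Non-stop. Results at start sites and motifs were not run.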
